A study of Mus musculus with 8 samples.

Results

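The comparison described here is the loss of SUV39H1/2 in cells in which G9a and GLP were inhibited. The Hi-C compartment score of UNC0642-treated Suv39h1/2 double knockout (DKO) mouse embryonic stem cells (mESCs) was set against that of UNC0642-treated wild-type (WT) mESCs, bin by bin. Members were the 100-kb bins of the 19 autosomes with a non-zero score in both libraries, which held for 23982 of the 24005 bins scored in any library. Of the 23 bins left out, 8 lie on chromosome 7. The WT cells are ADF1-26 mESCs and the DKO cells are ADF157 mESCs, which lack both Suv39h1 and Suv39h2. The WT and DKO cells come from different clones, and an effect of the clone and one of the genotype cannot be told apart. The treated cells of both clones received UNC0642 at 2 µM for 3 days, and both clones were also profiled without it. All were grown on gelatin in DMEM with fetal calf serum, serum replacement and LIF. A second line with an inducible Setdb1 deletion gave 4 further libraries: Setdb1 WT, Setdb1 WT + UNC, Setdb1 KO (800 nM 4-hydroxytamoxifen for 5 days) and Setdb1 KO + UNC (4-hydroxytamoxifen for 2 days, then UNC0642), so Setdb1 KO and Setdb1 KO + UNC differ in the length of the 4-hydroxytamoxifen treatment as well as in UNC0642. They served to sort the bins by a score measured in neither Suv39h clone, to estimate the spread in the model across libraries, and as levels and pairs of libraries set beside the results. Every group had 1 set of scores, so a difference between 2 libraries carries no replicate error. Which of the study's repeats, or whether a pool of them, each set holds is not stated.

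SUV39H1 and SUV39H2 are the histone methyltransferases that place H3K9me3 at pericentromeric satellite repeats and at many transposable elements, where HP1 proteins bind the mark. G9a and GLP form a complex that makes most of the H3K9me2 of mESCs, and UNC0642 blocks their catalytic site. Hi-C counts contacts between loci in fixed nuclei, and its first eigenvector divides each chromosome into an A compartment of gene-rich, active chromatin (positive score) and a B compartment of gene-poor, H3K9me2-rich chromatin at the lamina and nucleolus (negative score). The score has no physical unit. The comparison asks whether the compartments change when SUV39H1/2 are missing and G9a/GLP cannot act. As a check of cell identity, 9 of 10 stem cell genes lay in bins of positive score in all 8 libraries, and Dppa4 was the exception, by 1 library of the Setdb1 line (-0.000449 in Setdb1 WT + UNC). Suv39h1 is on the X chromosome, which was not scored. The bin of Suv39h2 scored 0.00734 in WT, 0.0107 in WT + UNC, 0.00598 in DKO and 0.00909 in DKO + UNC, which does not test the knockout, since a compartment score does not measure the gene.

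Sequences from the regions on which the results turn are shown first, 5′ to 3′ with each GATC, the site at which DpnII cut the chromatin, in capitals. The first pair are the central 200 bases (GRCm38.p6, plus strand) of the bins that changed most within the longest falling and the longest rising run of bins. The falling one lies within the Rp1 bin, whose whole 100 kb has a GC content of 38.5% and 50.5% of its bases in soft-masked repeats, at chr1:4149901-4150100. The rising one lies within the Arhgap28 bin, with a GC content of 44.0% and 24.0% soft-masked bases, at chr17:67949901-67950100.
Rp1 bin, falling: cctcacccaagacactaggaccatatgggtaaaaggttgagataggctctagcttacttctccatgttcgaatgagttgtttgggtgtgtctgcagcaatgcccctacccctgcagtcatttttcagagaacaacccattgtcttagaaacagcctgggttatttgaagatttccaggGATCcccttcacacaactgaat
Arhgap28 bin, rising: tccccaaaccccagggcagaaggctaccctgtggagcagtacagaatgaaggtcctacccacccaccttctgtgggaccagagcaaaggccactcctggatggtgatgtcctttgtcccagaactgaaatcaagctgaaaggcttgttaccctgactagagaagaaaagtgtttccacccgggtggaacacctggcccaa
The others are promoters (RefSeq, GRCm38.p6, 250 bases before to 50 after the start of the gene, all on the minus strand) and were chosen from the named regions to show sequences of low, high and median CpG content. Defb41, at chr1:18265089-18265388, lies in bins that went from A to B in both SUV39H1/2 comparisons. Adcy2, at chr13:68999492-68999791, lies in bins that rose in both. Lrrc30, at chr17:67632674-67632973, lies in the longest rising run.
Defb41: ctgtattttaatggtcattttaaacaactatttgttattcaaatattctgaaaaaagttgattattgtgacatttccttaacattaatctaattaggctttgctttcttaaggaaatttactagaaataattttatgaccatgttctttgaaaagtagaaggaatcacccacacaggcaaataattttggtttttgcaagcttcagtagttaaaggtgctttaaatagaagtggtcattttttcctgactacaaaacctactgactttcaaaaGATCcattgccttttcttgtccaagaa
Adcy2: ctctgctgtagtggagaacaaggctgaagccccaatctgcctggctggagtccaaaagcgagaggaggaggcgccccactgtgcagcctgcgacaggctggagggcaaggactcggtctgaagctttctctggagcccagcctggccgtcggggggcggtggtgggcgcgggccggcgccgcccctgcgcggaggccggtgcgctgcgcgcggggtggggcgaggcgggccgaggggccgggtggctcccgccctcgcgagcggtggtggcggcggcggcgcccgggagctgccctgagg
Lrrc30: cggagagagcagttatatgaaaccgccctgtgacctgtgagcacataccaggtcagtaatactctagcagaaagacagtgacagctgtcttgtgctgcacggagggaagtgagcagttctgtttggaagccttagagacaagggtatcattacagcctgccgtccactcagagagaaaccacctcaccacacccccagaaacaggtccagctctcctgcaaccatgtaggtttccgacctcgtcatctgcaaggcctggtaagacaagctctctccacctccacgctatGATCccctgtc
The Defb41 promoter holds 0 CpG dinucleotides at a GC content of 29.7%, the Adcy2 promoter 32 at 75%, and the Lrrc30 promoter 7 at 53.0%. The median over the 32851 promoters of the same length is 7 CpG at 52.7%. GATC, which reads the same on both strands, is present in 48.0% of those promoters, and in those of Defb41 and Lrrc30 but not in that of Adcy2. These letters describe the regions and identify no bound factor. Of 40 protein-coding genes named in the regions, 18 had promoters in the table used, some of them several. The 19 promoters in regions that rose or went from B to A had a median of 16 CpG (1 to 56) and a median GC content of 62.7% (42% to 84%), and those in regions that fell or went from A to B, 10 in number, medians of 14.5 (0 to 45) and 56% (29.7% to 75.7%). The ranges overlap widely, and the printed pair of Defb41 and Adcy2 lies far apart within them.

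Compartments were largely the same in the 2 UNC0642-treated clones. The score kept its sign in 95.4% of bins (22882 of 23982, 95% Wilson interval 95.1 to 95.7). From B to A went 687 bins (2.86%), and from A to B went 413 (1.72%). The excess of B to A depends on the processing, with 2.19% each way after quantile normalization, and 2.11% B to A against 2.40% A to B if the chromosome mean described below is taken as negative. Of those 1100 bins, 1036 (94.2%) had a WT + UNC score within 0.01 of 0. The A compartment took 45.1% of bins in WT + UNC and 46.3% in DKO + UNC, against 44.8% in WT and 46.0% in DKO without the inhibitor. The interval covers counting error only and is too narrow, because neighbouring bins are not independent.

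A bin is called rising or falling here where its score differed by at least 0.01 between the libraries, a size of change and not a test. By this measure 714 bins rose (2.98%) and 925 fell (3.86%). The SD of the change was 0.00546 over all bins, 67.0% of bins changed by less than 0.005, and 13 bins rose and 36 fell by 0.02 or more. Without UNC0642, 874 bins rose (3.65%) and 896 fell (3.74%), with an SD of 0.00563. The authors' scores average 0 on every chromosome, so a change shared by a whole chromosome cannot appear in them. The balance of rises and falls accordingly depends on that centring, in that rises made up 43.6% of the changed bins in the scores as given, and, for a subtracted chromosome mean whose size is inferred from the scores but whose sign is unknown, 67.8% if it is taken as positive and added and 22.9% if it is taken as negative. The size of that mean was larger in DKO + UNC than in WT + UNC on 19 of 19 autosomes (median over the autosomes 0.00800 against 0.00597) and larger in DKO than in WT on 0 of 19. No general direction is therefore given, and rises and falls below are relative to the rest of the chromosome.

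Changed bins were unevenly spread over chromosomes. Between 1.75% of bins (chromosome 5) and 12.8% (chromosome 18) changed by 0.01 or more. The scores themselves spread more widely on chromosomes with fewer bins, with an SD in WT + UNC from 0.0220 on chromosome 2 to 0.0406 on chromosome 19. With each chromosome brought to the same SD, a setting chosen after seeing the data, 766 bins rose and 937 fell, and the share of changed bins still ran from 2.06% (chromosome 8) to 15.02% (chromosome 1). In the scores as given, falls outnumbered rises on 16 of the 19 autosomes, a balance that depends on the centring described above. Among bins that passed 0.01 in both comparisons they did so on 9.

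The same loss of SUV39H1/2 measured without UNC0642 uses 2 other libraries of the same 2 clones. Of the bins that rose with UNC0642, 84 of 714 (11.8%) also rose without it and 26 (3.64%) fell. They make up 0.35% of all bins and 9.61% of those that rose without the inhibitor. Of the bins that fell, 122 of 925 (13.2%) fell without it and 34 (3.68%) rose, which is 0.509% of all bins and 13.6% of those that fell without it. Most changes of this size thus did not reach 0.01 in the other pair. The bins nonetheless leaned the same way, with a median change without UNC0642 of 0.00252 for the rising and -0.00206 for the falling bins, and the same sign in 66.0% and 62.0% of them, against 55.5% of the bins that did not change by 0.01 with UNC0642. Across all 23976 bins scored in the 4 Suv39h libraries, the changes correlated at r = 0.188 (Spearman 0.18). The correlation was positive on 19 of 19 autosomes, from 0.0785 on chromosome 15 to 0.417 on chromosome 17, and was 0.404 over means of 500 kb. The bins share clones, and neighbours in them, so these correlations describe the maps and have no p-value. Switches repeated in part as well, with 197 bins going from B to A in both (0.822%) and 77 from A to B in both (0.321%).

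**Figure D1:**
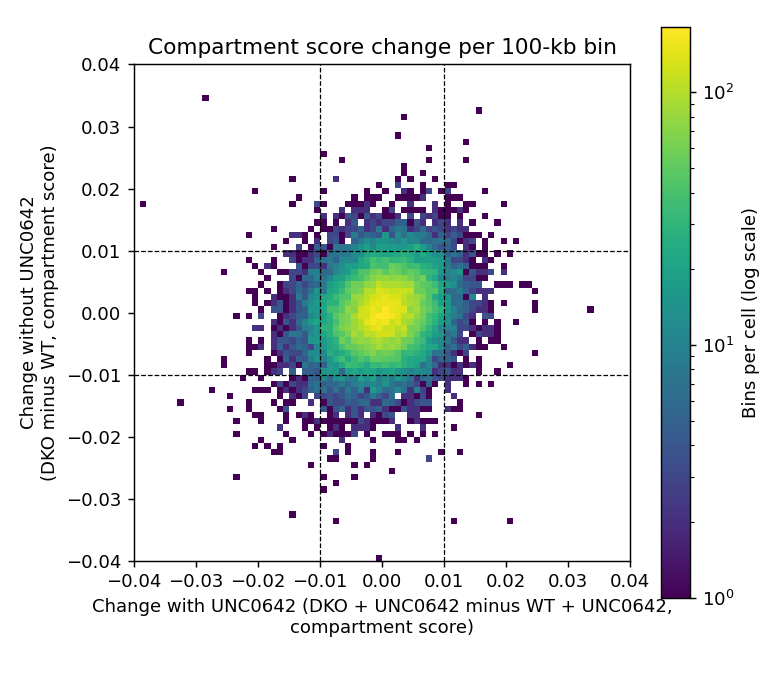
Change in compartment score for each 100-kb bin with UNC0642 (x axis, DKO + UNC minus WT + UNC) and without it (y axis, DKO minus WT), shown as the number of bins per cell of 0.001 by 0.001 on a logarithmic colour scale. Dashed lines mark 0.01 in either direction. The cloud tilts weakly (r = 0.188), with 84 bins in the upper right and 122 in the lower left corner. 1 bin lies outside the plotted range.

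A test across libraries was made with limma, which took the UNC0642-treated and untreated pairs together (2 DKO against 2 WT libraries) and estimated the spread from all 8 libraries. It called 0 of 23972 bins at an adjusted p of 0.05 (0%), with a lowest adjusted p of 0.280. The libraries of a side are the same clone with and without UNC0642 and not replicates. The spread is how the response to UNC0642 differed among Suv39h WT, DKO, Setdb1 WT and Setdb1 KO cells. It holds no difference between clones of a genotype or between repeats, and a dependence of the change on UNC0642 counts as noise. Without adjustment, 2302 of the 23972 bins passed 0.05, of which 1140 were higher and 1162 lower in DKO. That is a share above 0.05, from a spread that holds no difference between clones. On simulated scores with 200 changed bins, the same fit recovered 0% of changes of 0.01 and 83% of changes of 0.02 (8 false calls). Of changes of 0.03 it recovered 99% (7 false calls). Changes near 0.01, the size of most of those described here, were thus not detectable by this test. The simulated noise was independent between bins and libraries, and the simulation held no response to UNC0642. The shares recovered at 0.02 and 0.03 may therefore be too high for the measured scores.

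The change went with base composition. GC-rich bins moved towards A relative to GC-poor bins at every level of compartment score. Bins were sorted into 5 equal classes by their mean score in the Setdb1 line, from 1 (most B-like) to 5 (most A-like), and into 3 equal groups by GC content (GC-poor, middle and GC-rich). GC-rich bins exceeded GC-poor bins in median change in each class, by 0.00359 in the most B-like, then 0.00546, 0.00413, 0.00609 and 0.00467 in the most A-like. Without UNC0642 the 5 differences ran from 0.00250 to 0.00414. Their mean over the classes was 0.00479 with the inhibitor and stayed between 0.00454 and 0.00491 under scaling, centring and chromosome 1 alternatives, which were chosen after seeing the data. The same mean was 0.00341 for DKO minus WT. For pairs of libraries that do not differ in SUV39H1/2 it was 0.00377 for Setdb1 WT + UNC minus Setdb1 WT, 0.00368 for DKO + UNC minus DKO, 0.00169 for WT + UNC minus WT, 0.000128 for Setdb1 KO minus Setdb1 WT, -0.00111 for Setdb1 KO + UNC minus Setdb1 KO and -0.00521 for Setdb1 KO + UNC minus Setdb1 WT + UNC, with Setdb1-line pairs sorted by the Suv39h-line scores. DKO + UNC minus DKO and WT + UNC minus WT each share a library with the comparison made with UNC0642. The Setdb1-line pairs share none with it. Among those, the largest difference of the same sign was 0.00377, and the only one above 0.00479 in size, -0.00521, had the opposite sign. Differences along GC content were thus not confined to pairs that differ in SUV39H1/2. With the bins of each autosome divided at its median score, the GC-richer bins of both divisions had the higher median change on 17 of 19 autosomes with UNC0642 and on 13 of 19 without it.

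Larger shares changed in several classes in which base composition and compartment disagreed. Of the 268 GC-poor bins in class 4, 69 fell (25.7%) and 1 rose, with a median change of -0.00483. Leaving out the first 30 Mb of chromosome 1, 50 of 231 fell (21.6%). Of the 60 GC-poor bins in class 5, 16 fell (26.7%) and 0 rose, with a median change of -0.00527. In the other direction, 32 of the 221 GC-rich bins of class 2 rose (14.5%) and 9 fell, with a median change of 0.00481. Of the 93 GC-rich bins of the most B-like class 1, 10 rose (10.8%) and 4 fell (4.30%), with a smaller median change of 0.00309. Without UNC0642, 16.0%, 13.3%, 13.1% and 14.1% of the bins of these classes, in the same order, changed in the same direction.

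**Figure D2:**
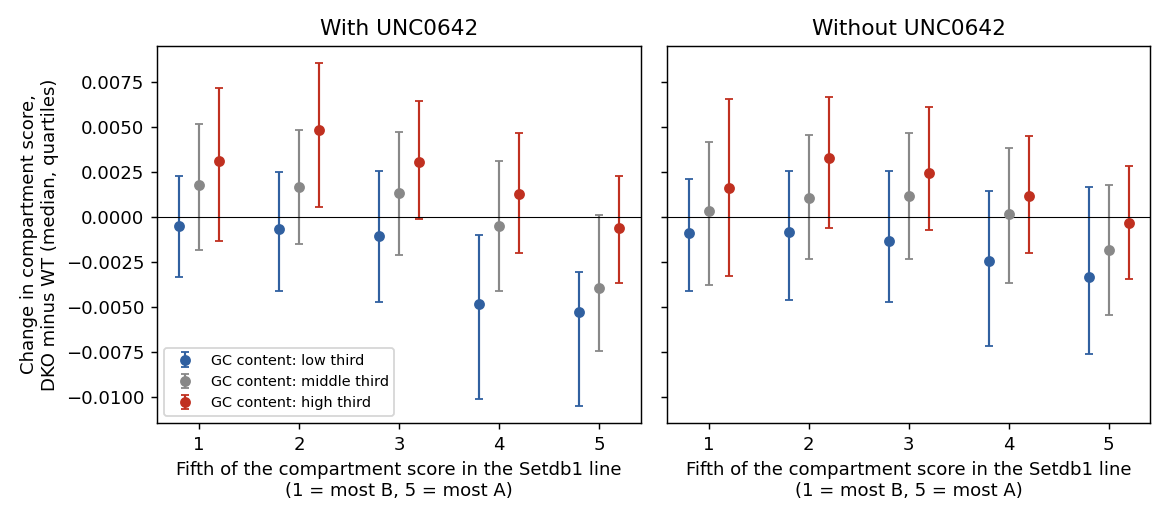
Median change in compartment score from WT to DKO (y axis) in 5 equal classes of the score in the Setdb1 line (x axis, 1 most B-like), split into 3 equal groups by GC content, with UNC0642 (left) and without (right). Points are medians over bins and bars run from the lower to the upper quartile of the bins. In every class and both panels the GC-rich bins lie above the GC-poor bins, and with UNC0642 the GC-poor bins of classes 4 and 5 have medians of -0.00483 and -0.00527.

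Over all bins the Spearman correlation of the change with GC content was weak, at 0.129 with and 0.131 without UNC0642, and it was positive on 19 of 19 autosomes in both. The same correlation was 0.0907 for WT + UNC minus WT and 0.0842 for DKO + UNC minus DKO. Each of these pairs shares a library with the comparison made with UNC0642. It was 0.00793 for Setdb1 KO minus Setdb1 WT and -0.209 for Setdb1 KO + UNC minus Setdb1 WT + UNC. Among these pairs, which do not differ in SUV39H1/2, only the last exceeded 0.129 in size, with the opposite sign. The base composition of the sequenced fragments was not used here, and its part in the result was not tested. The density of DpnII sites had almost no relation to the change (Spearman 0.0121), while the share of soft-masked repeats, which goes with low GC, had one of -0.129. Over 10 equal groups by GC content, rises went from 0.667% of bins in the poorest to 5.13% in group 7 and 2.29% in the richest, and falls from 4.92% to 0.792%. The 84 bins that rose in both comparisons had a median GC content of 43.4% with 26.8% soft-masked, and the 122 that fell in both 39.3% with 39.3%, around medians of 41.4% and 31.7% over all bins. Removing a linear fit on GC content, an alternative chosen after seeing the data, left 678 rising and 902 falling bins.

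In the scores as given, rises concentrated at compartment borders, and falls did not. The counts at borders were not repeated under other scalings or centrings. Of the 3340 bins at a border between A and B in the Setdb1 line, 207 rose (6.20%) and 135 fell (4.04%). More than 15 bins from a border, 1.00% rose and 3.83% fell. Without UNC0642, 6.47% rose at a border and 2.07% at more than 15 bins from it. At the border itself the median change was 0.00140 on the A side and 0.00152 on the B side. In terms of the score itself, class 6 of 10 equal classes, near 0, had a median change of 0.00139 and the most A-like class 10 one of -0.00146. The class medians depended on scaling, and quantile normalization brought the 3 compared classes (lowest, middle, highest) to 0.000172, 0.000205 and 7.51e-05, so the shift between score classes was not seen once the libraries had the same distribution of scores. Of bins with no gene start 3.19% rose and 3.60% fell, of those with 1 or 2 starts 2.87% and 4.54%, and of those with 3 or more 2.13% and 3.26%.

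The score was also higher towards the distal end of the chromosomes, where mouse chromosomes, whose centromere is at the start of the assembly, have their free telomere. Each autosome was divided into 10 segments of equal length. The last segment had a median change of 0.00185, above 0 on 19 of 19 autosomes, and the segment before it 0.00109. Without UNC0642 the last segment had a median of 0.000776, above 0 on 13 of 19. In the first segment, next to the centromere, the median was -0.000391, and 162 bins (6.77%) fell against 38 (1.60%) in the last. The first segment rests on chromosome 1, without which its median was 5.29e-05 and 104 of its 2200 bins fell (4.73%). With UNC0642 the first 10 Mb had a median above 0 on 12 of 19 autosomes and the last 10 Mb on 18. Without UNC0642 these were 9 and 11 of 19. The last segment was GC-richer than the first (median 44.3% against 40.5%). The last segment was above 0 on 18 of 19 autosomes for UNC0642 treatment of DKO cells (DKO + UNC minus DKO, which shares the DKO + UNC library), and on 12 of 19 for treatment of WT cells. For Setdb1 KO minus Setdb1 WT its median was 4.92e-05, above 0 on 10 of 19. For Setdb1 KO + UNC minus Setdb1 WT + UNC it was -0.0015, above 0 on 3 of 19. The Spearman correlation of the change with position was -0.188 for that pair, against 0.110 for DKO + UNC minus WT + UNC.

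**Figure D3:**
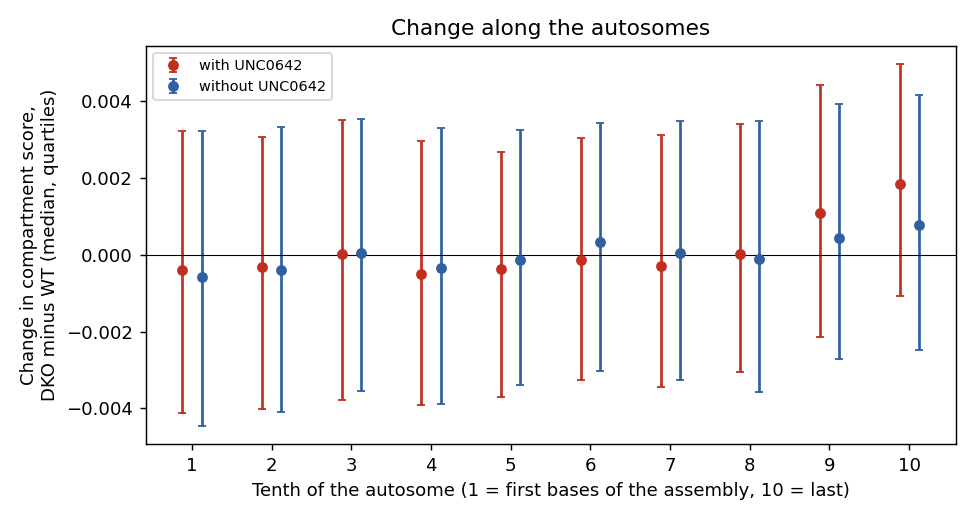
Median change in compartment score from WT to DKO (y axis) in 10 equal segments of each autosome from the centromeric start to the distal end of the assembly (x axis), with UNC0642 (red) and without (blue). Points are medians over bins of all autosomes and bars run from the lower to the upper quartile. The last segment with UNC0642 has the highest median, 0.00185, and the quartile range spans 0 in every segment.

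Neighbouring bins tended to change together, with a correlation of 0.260 between the changes of adjacent bins (0.154 without the inhibitor) and 0.124 at 1000 kb (0.0711 without). Stretches of 2 or more neighbours that all passed 0.01 in one direction, called runs here, numbered 56 for rises, holding 130 bins (18.2% of those that rose), and 104 for falls, holding 260 (28.1%). The other bins stood alone.

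The start of chromosome 1 held the longest falling run. Over 3 to 30 Mb of chromosome 1, 76 of 270 bins fell and 0 rose with UNC0642, 95 fell without it, and 31 of the 122 bins that fell in both comparisons lie there. The longest run, of 18 bins, is chr1:3000001-4800000 and carries Xkr4, a phospholipid scramblase of the nervous system, Rp1, a microtubule-associated protein of the photoreceptor cilium, Sox17, a transcription factor of endoderm, and Mrpl15, a protein of the mitochondrial ribosome. Its mean score was 0.0454 in WT, 0.0294 in WT + UNC, 0.0306 in DKO and 0.00864 in DKO + UNC. WT was the highest and DKO + UNC the lowest library, with the other two close to each other between them. The mean change was -0.0207 with UNC0642 (-0.0278 to -0.0141 over the bins) and -0.0148 without, where 18 of 18 bins moved down and 15 passed 0.01. The 4 libraries of the Setdb1 line lay between 0.0112 and 0.0137, near DKO + UNC and below WT, WT + UNC and DKO. The lowest adjusted p of a bin in the run was 0.357 in the limma fit.

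**Figure D4:**
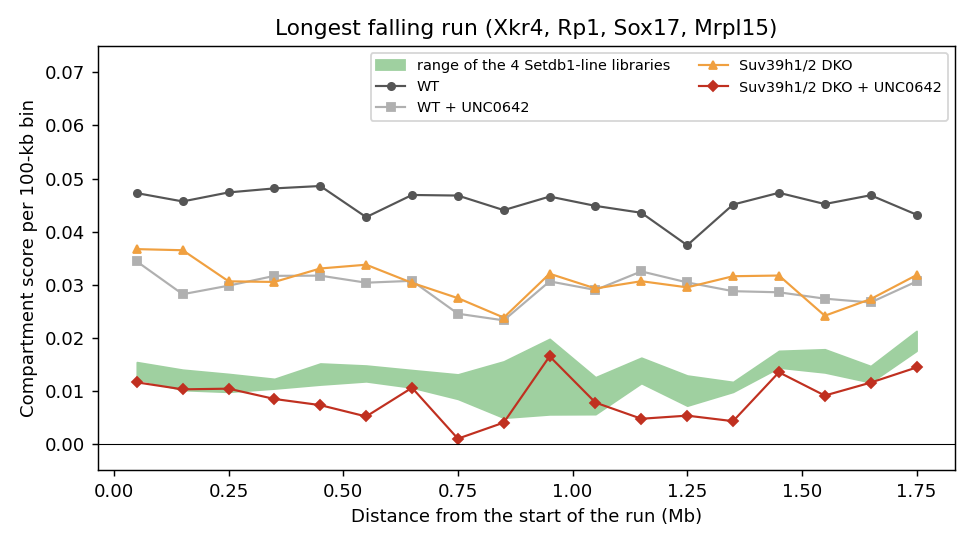
Compartment score of the 18 bins of the longest falling run (y axis) against the distance from its start (x axis, Mb) in the 4 Suv39h libraries (lines) and the range of the 4 Setdb1-line libraries (green band). WT averages 0.0454, WT + UNC and DKO run together near 0.03 (means 0.0294 and 0.0306), and DKO + UNC averages 0.00864, within or below the band in most bins.

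A pair of further falling runs lies close by. At chr1:6200001-6800000, with Rb1cc1, a protein needed to start autophagy, Alkal1, a ligand of the ALK receptor, and St18, a zinc finger transcription factor, the mean score was 0.0263 in WT, 0.0162 in WT + UNC, 0.0135 in DKO and -0.000334 in DKO + UNC. At chr1:5500001-6100000, with the opioid receptor gene Oprk1 and the neuropeptide receptor gene Npbwr1, it was 0.0220, 0.0123, 0.0130 and 0.000879 in the same order. In both, as in the first, WT was the highest and DKO + UNC the lowest library, with changes of -0.0166 and -0.0114 with UNC0642 and of -0.0128 and -0.00900 without. The Setdb1 line lay between 0.00373 and 0.00745 in the Rb1cc1 run and between 0.000971 and 0.00725 in the Oprk1 run. In both it was below WT, WT + UNC and DKO. The smallest adjusted p among bins of the named regions, 0.321, was in the Rb1cc1 run.

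The 3 other long falling runs lay on chromosomes 14, 15 and 16 and differed in whether the fall was seen without the inhibitor. Over part of Rims2, which encodes a presynaptic active zone protein, at chr15:39300001-39700000, the score was 0.0109 in WT, 0.0148 in WT + UNC, 0.00356 in DKO and -0.00201 in DKO + UNC. Both DKO libraries were below both WT libraries (changes -0.0168 and -0.00737), and 2 of the 4 bins went from A to B in both comparisons. At chr16:36700001-37100000, which holds 8 genes including Slc15a2, a peptide transporter, Eaf2, an elongation factor partner, and Iqcb1, a ciliary protein, the score was 0.0284, 0.0296, 0.0288 and 0.0150. DKO + UNC stood below the other 3 libraries, and the change without UNC0642 was 0.000446. At chr14:65100001-65500000, with Extl3, a heparan sulfate glycosyltransferase, and Fzd3, a Wnt receptor, it was 0.0432, 0.0482, 0.0409 and 0.0344. The change there was -0.0138 with UNC0642 and -0.00227 without. The Setdb1 line lay between -0.00128 and 0.00744 at Rims2 and between 0.0164 and 0.0222 in the Slc15a2 run. In the Extl3 run it lay between 0.0406 and 0.0420.

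Among rises the longest run had 6 bins, at chr17:67400001-68000000, across Lrrc30, the laminin subunit gene Lama1 and Arhgap28, which encodes a GTPase-activating protein. The mean score was -0.0147 in WT, -0.0146 in WT + UNC, -0.00826 in DKO and -0.000150 in DKO + UNC. Both WT libraries lay together, DKO was higher and DKO + UNC highest, and the changes were 0.0144 with and 0.00640 without UNC0642. The Setdb1 line stayed between -0.0202 and -0.0169. A further run on the same chromosome, chr17:69200001-69500000 with Epb41l3, Zbtb14 and Akain1, scored -0.0110, -0.0113, -0.00279 and 0.00305, and ended on the A side. There the Setdb1 line lay between -4.43e-05 and 0.00410, at the level of DKO + UNC.

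Of the other runs, 3 described here had the same order of both DKO libraries above both WT libraries. Kcnma1, which encodes the BK potassium channel, at chr14:23600001-24000000, scored -0.000188 in WT, -0.00142 in WT + UNC, 0.00553 in DKO and 0.0131 in DKO + UNC. Setdb1 WT + UNC reached 0.0139 there without a loss of SUV39H1/2, against 0.00170 in Setdb1 WT. The run with Dmrt1, Dmrt3 and Dmrt2, transcription factors of gonadal and neural development, at chr19:25600001-25900000, scored -0.0310, -0.0360, -0.0267 and -0.0210 and stayed in B in each library. The run with Frmpd2 and Ptpn20 at chr14:33500001-33800000 scored 0.00619, 0.00188, 0.00863 and 0.0167. In each of these runs the change was larger with UNC0642 than without it, as the choice of the runs by that change favours.

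**Figure D5:**
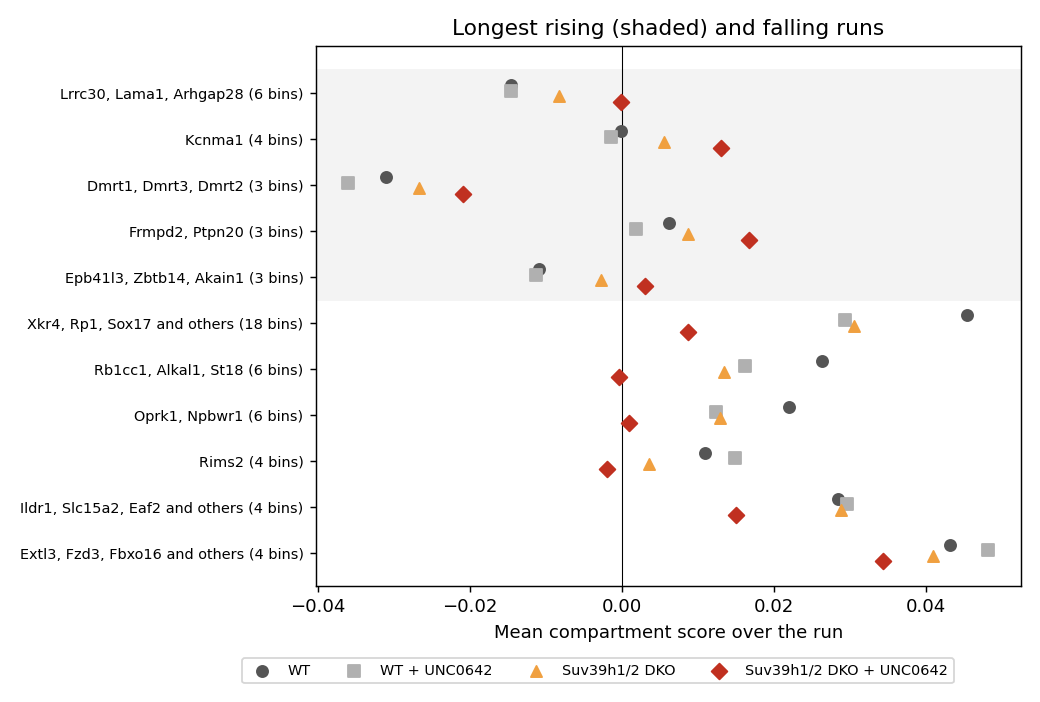
Mean compartment score (x axis) of 5 of the 6 longest rising runs (shaded) and of the 6 longest falling runs of bins with UNC0642, each named by its genes, in the 4 Suv39h libraries. Points are means over the bins of a run, shifted vertically to keep them apart. DKO + UNC is the highest library in each rising run and the lowest in each falling run, which the choice of runs favours, and untreated DKO lies above both WT libraries in each rising run.

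Fewer regions passed 0.01 in both comparisons. Adjacent pairs of bins rose in both at chr18:62700001-62900000, over the protease inhibitor gene Spink13, and at chr13:68800001-69000000, over the start of the adenylyl cyclase gene Adcy2, whose GC-rich promoter is printed above. The Adcy2 bins scored -0.0213 in WT, -0.0178 in WT + UNC, -0.00767 in DKO and -0.00649 in DKO + UNC, a change of 0.0113 with and 0.0137 without UNC0642. Setdb1 WT + UNC also scored -0.00858 there without a loss of SUV39H1/2, against -0.0241 in Setdb1 WT. The Spink13 bins went from B to A in both comparisons, with -0.0143, -0.00347, 0.00164 and 0.00815, while all 4 libraries of the Setdb1 line were in A (0.00363 to 0.0107). Of the 5 named runs that fell in both, 4 lie at the start of chromosome 1. The other, of 2 bins like the shortest of those 4, lies over the transcription factor gene Tcf12, at chr9:71900001-72100000, which scored 0.0145, 0.0109, 0.00170 and -0.00709. A pair of bins with the beta-defensin genes Defb18 and Defb41, which encode antimicrobial peptides, at chr1:18200001-18400000, went from A to B in both, with 0.00738 in WT, 0.00179 in WT + UNC, -0.00527 in DKO and -0.00765 in DKO + UNC. In the Setdb1 line the Tcf12 bins lay between 0.0104 and 0.0161, and the Defb18 and Defb41 bins between -0.00794 and 0.000523. The longest run from B to A in both, 3 bins over Dpp6 and Speer4b at chr5:27200001-27500000, scored -0.00228, -0.00168, 0.00181 and 0.00509, all close to 0.

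The largest changes of single bins mostly lay in repeat-rich sequence. Bins at chr14:3500001-3600000 (Gm3005), with a change of 0.0340, and at chr14:4700001-4800000 and chr14:6000001-6100000, with changes of -0.0383 and -0.0287, are 60.9%, 61.2% and 61.9% soft-masked. Without UNC0642 they changed by 0.000141, 0.0176 and 0.0349, the falling pair thus in the other direction. The bin at chr18:90600001-90700000 changed by -0.0322 with UNC0642 and by -0.0145 without it. It holds 2639 determined bases, 50.1% of them soft-masked, at the end of the chromosome assembly. The remaining large rises were 0.0249 at the potassium channel genes Kcnj5 and Kcnj1 (chr9:32300001-32400000) and 0.0247 at Tcf7l2, a Wnt pathway transcription factor (chr19:55900001-56000000), with 0.00313 and -0.00700 without the inhibitor. Their bins are 20.3% and 24.9% soft-masked, below the median of 31.7% over all bins. The part of read mapping in repeats in these changes of single bins was not tested.

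Gene families were read against all gene-bearing bins, of which 2.68% rose and 4.21% fell. Without UNC0642, 319 of these 10046 bins rose and 369 fell, and 36 rose and 52 fell in both comparisons. Genes were placed by their start, and the lists are read as counts of bins without a test. Of 94 bins with vomeronasal type 2 receptor genes, 11 fell (11.7%) and 2 rose, and 10 fell without UNC0642, but 1 fell in both. Vmn2r113 had the lowest value, with scores of -0.0312 in WT, -0.0276 in WT + UNC, -0.0318 in DKO and -0.0470 in DKO + UNC. Of 279 bins with Zfp zinc finger genes, many of which encode repressors of transposable elements, 19 fell (6.81%) and 6 rose, against 8 and 12 without UNC0642, with Zfp40 lowest at a change of -0.0193, 0 rose in both comparisons and 1 fell in both. Olfactory receptor bins, B-like and GC-poor, fell in 18 of 333 (5.41%) and rose in 6, against 7 and 9 without UNC0642, with a median change of -0.000175 that became 0.000785 or -0.00139 with the chromosome mean taken as positive or negative, and vomeronasal type 1 receptor bins fell in 6 and rose in 4 of 97, against 3 and 7. Defensin bins fell in 3 of 22, and keratin bins rose and fell in 3 each of 36. These clustered families share neighbouring bins.

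Genes of stem cells and of development are few, and the shares of all gene-bearing bins would give few changed bins in lists of this size. None of the 20 bins of pluripotency genes changed by 0.01 with UNC0642 (range -0.00519 at Sall4 to 0.00876 at Zfp42, also known as Rex1), nor did the 25 of germline genes (-0.00904 at Tdrd1 to 0.00680 at Dazl) or the 9 of Hox genes, which lay in A in WT + UNC at 100% and had a median change of 0.00329. Without UNC0642, 2 bins of pluripotency genes rose and 1 fell, and 1 bin of germline genes fell. The Hox bins had a median change of -0.00151 without it. Among 39 bins of lineage regulator genes, 4 fell (10.3%) and 0 rose, against 1 and 2 without UNC0642. Those of Otx2, Sox7 and Sox17 were among them and are named here after their values were seen. Otx2, a regulator of the exit from naive pluripotency and of the forebrain, scored 0.0318 in WT, 0.0533 in WT + UNC, 0.0397 in DKO and 0.0352 in DKO + UNC, where WT + UNC stood above the rest, and the change was -0.0181 with and 0.00791 without UNC0642. Sox17 fell in both comparisons as part of the chromosome 1 run. Of 46 bins with the starts of long neuronal genes, 3 rose (6.52%, at Adcy2, Cdh12 and Rbfox1, also chosen after their values were seen) and 3 fell (6.52%), those of Xkr4 and Cntn5 among them.

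The genes of H3K9 methylation and heterochromatin lay in A in WT + UNC in all 34 of their bins, of which 1 rose and 0 fell. The rise was at Lmna, the gene of lamin A/C, from 0.0526 in WT + UNC to 0.0632 in DKO + UNC (0.0516 and 0.0571 without the inhibitor). The lowest value on the list was at the methyltransferase gene Setdb2, with a change of -0.00930 with UNC0642 and -0.00404 without. Others of the methyltransferase and HP1 genes changed by -0.00150 at Setdb1, -0.00219 at Ehmt1 (GLP), -0.00357 at Ehmt2 (G9a), 0.00160 at Cbx1, -0.00263 at Cbx3 and -0.00496 at Cbx5. Two-cell-stage genes, which are tied to transposable elements that H3K9 methylation silences, rose in 1 of 27 bins, that of Tdpoz2, which scored -0.00497 in WT, -0.00662 in WT + UNC, 0.00530 in DKO and 0.00371 in DKO + UNC and so went from B to A in both comparisons. Replication-dependent histone gene bins rose in 1 of 9, at Hist1h2bq, with changes of 0.0146 with and 0.0141 without UNC0642. Without it 3 of the 9 rose and 2 fell, among them that of Hist1h2ba (-0.0157, against -0.00354 with UNC0642). Of the remaining lists, imprinted genes rose in 1 of 22 bins (Gnas, 0.0102) and fell in 0, ribosomal protein genes rose in 1 and fell in 2 of 73, clustered protocadherin genes fell in 1 of 10, serpin genes rose in 1 of 26, Ceacam and Psg genes fell in 1 of 21, Cyp2 and Cyp3 genes fell in 2 of 45, Skint genes fell in 1 of 8, bitter taste receptor genes rose in 1 of 14 and natural killer receptor genes rose in 1 of 16.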

How the data were processed

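Hi-C was done on mESCs with DpnII, and 1 set of compartment scores per group was used, 8 in all. The authors aligned reads to mm10 with the 4DN Hi-C pipeline, kept alignments of mapping quality above 10, and deposited a score per 100-kb bin, which is the leading eigenvector of the KR-normalised contact map of an autosome from Juicer Tools. The deposited scores average 0 on each chromosome, and from their sums of squares a subtracted mean was inferred, with unknown sign. The score tables carry no read counts and library totals were not used here, so no interval from depth is given.

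Scores were subtracted between libraries and described with pandas 2.3.3 and numpy 2.4.6 (Python 3.11.15). limma 3.58.1 in R 4.3.3 fitted background and UNC0642 on 8 libraries with Benjamini-Hochberg adjustment and was tested on simulated data. GC content, repeats and GATC sites came from GRCm38.p6, whose coordinates equal those of mm10, and 20804 protein-coding genes from GENCODE vM21. Score classes used the mean of the Setdb1 line. A border was a change of sign between adjacent bins of that mean. Named regions were the 6 longest runs per direction with UNC0642, the 5 longest passing 0.01 in both comparisons, the 3 longest switching in both and the 3 largest single bins, with at most 4 genes each. From each list the genes of lowest and highest change could be named. The regions, gene lists and tests were chosen with earlier results of these data known. A list of stefin A genes was left out because its pattern also took unrelated genes. Some of the named items are not reported here.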

Additional observations from a re-analysis of the deposited data

Results flagged for a closer look

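The change between DKO and WT had opposite signs with and without UNC0642, at 0.01 or more each way, in 3 of the named bins, and the difference was not tested. At chr14:4700001-4800000 the change was -0.0383 with UNC0642 and 0.0176 without. At chr14:6000001-6100000 it was -0.0287 with and 0.0349 without. The bin of Skint1, a gene of the thymic Skint family, changed by -0.0106 with and 0.0106 without, and its scores were -0.0341 in WT, -0.0281 in WT + UNC, -0.0235 in DKO and -0.0387 in DKO + UNC.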

How the results depend on the processing

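All 25 named regions, several of which overlap, kept the direction of their change under root-mean-square scaling, quantile normalization and both centrings. Most were chosen for changes of at least 0.01 in these same scores, which made a turn of direction unlikely. The class medians and several counts moved under some settings. Adding the implied mean gave 1212 rising and 576 falling bins (rises 67.8% of the changed), 94.6% maintained, 3.94% B to A and 1.49% A to B. Subtracting it gave 424 and 1431 (22.9%), 2.11% B to A and 2.40% A to B. Quantile normalization gave 2.19% each way. Means of 500 kb gave 17 rising and 27 falling (38.6%), 0 and 8 in both comparisons, r 0.404, 97.1% maintained, 1.99% B to A and 0.893% A to B, among fewer and larger bins. A change of 0.02 gave 13 and 36 (26.5%), with 0 and 2 in both, and one of 0.005 gave 4001 and 3910 (50.6%), with 1069 and 1059 in both. Among bins scoring at least 0.005 either way in WT + UNC, 98.6% were maintained, 0.862% went B to A and 0.574% A to B. Without chromosome 1, 1.54% went A to B. The median change of the lowest, middle and highest score classes was -0.000176, 0.00114 and -0.00146. It became 0.000172, 0.000205 and 7.51e-05 with quantile normalization, 0.00128, 0.00228 and -4.74e-05 after adding the mean, -0.00137, -5.98e-05 and -0.00298 after subtracting it, and 0.00103, 0.000905 and -0.00236 in classes of the WT + UNC score, which is a side of the comparison. Root-mean-square scaling moved the lowest and highest to -0.000539 and -0.000918, and classes of the WT score moved the highest to -0.00196. Beyond what the constructions show, the causes were not tested. Removing GC content, leaving out the first 30 Mb of chromosome 1 and giving chromosomes the same SD were chosen after seeing the data and kept the counts within 1.5 times. In 8 alternatives limma called 0 bins, with lowest adjusted p from 0.165 to 0.331. Without the UNC0642 term, which pairs treated with treated and untreated with untreated libraries, the lowest was 0.311. Leaving out each of the 8 libraries in turn, chosen after seeing the data, also gave 0 bins (lowest adjusted p from 0.154 to 0.751, the latter without Suv39h WT), and a clone left with 1 library was assumed to vary like the others. The 1-against-1 values allow no such check, and the labels carry no replicate numbers. The sign of the median change of a gene list depended on the processing for many lists. Of 23 lists, 10 turned sign after adding the mean, 2 after subtracting it, 4 with quantile normalization and 3 with root-mean-square scaling. Read numbers were not used here, since which repeat each score table holds is not stated.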
